A study of Mus musculus with 3 samples.

Results

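The cells described here are germ cells with Stra8 messenger RNA that were found among thawed fetal ovarian somatic cells of the mouse. They were chosen by their UMI counts of Dazl, Ddx4 and Stra8. A barcode was kept if it held 200 to 9000 genes and at most 10% mitochondrial unique molecular identifiers (UMIs, each standing for 1 captured RNA molecule). It was a germ cell if it held at least 5 Dazl UMIs and at least 1 Ddx4 UMI, and it was Stra8-high if at least 2 of every 10000 of its UMIs were Stra8. By this rule 1059 of 28971 kept cells (of 29103 barcodes) were Stra8-high, 533 in lot 26, 226 in lot 29 and 300 in lot 30. They were compared with the 281 germ cells under the Stra8 gate (139, 77 and 65 cells), called Stra8-low here. They were also compared with 27553 cells that held fewer than 5 Dazl UMIs, called somatic here. This group was set by Dazl alone, and 30, 15 and 10 of its cells in the 3 lots reached the Stra8 gate. Whether those are germ cells with few Dazl UMIs was not tested.

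The samples were 3 cryopreserved lots of fetal ovarian somatic cells (FOSCs) from CD1 mice at E12.5. Each lot pooled the ovaries of embryos from 10 pregnant mice, freed of mesonephros and dissociated with trypsin, and germ cells were depleted by magnetic sorting with antibodies to SSEA1 and CD31 before freezing. Single-cell RNA was sequenced after thawing by the 10X Genomics method, with no genetic change and no treatment named, so the lots form 1 condition and are the replicates (n = 3 lots). The germ cells are those that passed the depletion, and how well they stand for all germ cells of the gonad was not tested.

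In the fetal ovary, germ cells leave mitosis and enter meiosis in response to signals from the surrounding gonad, retinoic acid and BMP among them. STRA8 is the transcription factor that switches on the meiotic programme, together with its partner MEIOSIN, and the chromosomes then gain a cohesin-based axis on which recombination and synapsis take place. Dazl and Ddx4 encode RNA-binding proteins that mark germ cells once they have settled in the gonad.

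Promoter sequences of Stra8 and of 5 genes described later are shown first, since they hold short stretches to which retinoic acid receptors or STRA8 are known to bind. Each is the 250 bases before the RefSeq transcription start, read 5′ to 3′ on the strand of the gene, on GRCm38.p6. Capitals in the Stra8 promoter mark AGGTCA, the hexamer bound by retinoic acid receptors, and in the others CNCCTCAG or its reverse complement, letters described for promoters that STRA8 binds.
Stra8 (chr6:34920698-34920947, plus strand): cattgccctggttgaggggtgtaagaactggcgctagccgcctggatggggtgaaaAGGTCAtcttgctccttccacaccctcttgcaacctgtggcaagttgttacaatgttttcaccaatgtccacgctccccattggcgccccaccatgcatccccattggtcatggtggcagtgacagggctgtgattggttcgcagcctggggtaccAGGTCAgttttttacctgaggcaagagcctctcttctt
Gm4969 (Meiosin) (chr7:19118345-19118594, minus strand): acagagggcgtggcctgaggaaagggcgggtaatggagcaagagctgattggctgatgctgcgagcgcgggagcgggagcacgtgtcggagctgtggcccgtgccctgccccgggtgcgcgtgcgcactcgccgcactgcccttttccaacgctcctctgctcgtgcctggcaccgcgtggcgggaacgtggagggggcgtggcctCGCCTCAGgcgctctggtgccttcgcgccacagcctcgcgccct
Figla (chr6:86016941-86017190, plus strand): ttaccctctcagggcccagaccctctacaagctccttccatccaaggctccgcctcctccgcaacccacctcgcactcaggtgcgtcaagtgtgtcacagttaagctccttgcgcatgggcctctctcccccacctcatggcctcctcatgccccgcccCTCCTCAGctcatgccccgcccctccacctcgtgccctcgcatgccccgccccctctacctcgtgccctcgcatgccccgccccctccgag
Hormad2 (chr11:4441083-4441332, minus strand): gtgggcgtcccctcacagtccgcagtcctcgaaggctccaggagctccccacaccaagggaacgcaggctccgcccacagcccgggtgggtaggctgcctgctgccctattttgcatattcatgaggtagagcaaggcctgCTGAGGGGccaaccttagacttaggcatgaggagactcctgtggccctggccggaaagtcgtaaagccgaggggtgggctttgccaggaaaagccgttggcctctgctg
Prdm9 (chr17:15564355-15564604, minus strand): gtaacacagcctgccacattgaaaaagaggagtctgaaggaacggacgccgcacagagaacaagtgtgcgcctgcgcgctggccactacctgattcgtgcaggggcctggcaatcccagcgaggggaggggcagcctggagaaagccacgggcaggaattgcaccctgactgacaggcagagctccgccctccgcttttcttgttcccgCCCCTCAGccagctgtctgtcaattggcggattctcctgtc
Pou5f1 (chr17:35505782-35506031, plus strand): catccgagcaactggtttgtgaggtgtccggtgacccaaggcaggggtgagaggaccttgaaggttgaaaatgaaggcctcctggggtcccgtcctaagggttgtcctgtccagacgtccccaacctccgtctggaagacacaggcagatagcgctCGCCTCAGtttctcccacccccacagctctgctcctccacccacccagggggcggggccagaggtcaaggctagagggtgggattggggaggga
The Stra8 promoter held AGGTCA 194 and 38 bases before the start. Gm4969, Figla, Hormad2 and Prdm9 are genes that were higher in Stra8-high cells, and Pou5f1, which encodes the pluripotency factor OCT4, is one that was lower. A match describes the letters only. Prdm9 and Pou5f1 each have another RefSeq start, and the 250 bases before it (chr17:15563332-15563581 and chr17:35508557-35508806) held no CNCCTCAG. In the GENCODE annotation Stra8 and Figla start earlier, at 34920163 and 86016171, so their stretches shown here lie inside those genes.

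The members differed widely in the gene that defined them. The median Stra8-high cell held 20, 13 and 19 Stra8 UMIs in lots 26, 29 and 30, which is 8.73, 7.23 and 7.59 per 10000 UMIs. The highest cells held 38.2, 34.0 and 29.8 per 10000. Summed over cells, Stra8 (chromosome 6, 34920163 to 34939344, plus strand, GRCm38) stood at 964, 809 and 843 UMIs per 1000000 UMIs (CPM) in Stra8-high cells, 72.4, 72.2 and 62.3 CPM in Stra8-low cells and 5.57, 1.75 and 2.56 CPM in somatic cells. These values, like those of Dazl and Ddx4, follow from the rule and are given as a description. The 45 germ cells just under the gate (1.5 to under 2 per 10000) held 181, 179.7 and 163 Stra8 CPM, and the 55 just over it (2 to under 2.5) held 223, 214 and 229 CPM, as the windows fix. Rec8, a meiotic gene outside the rule, was at 58.3, 85.3 and 84.2 CPM just under the gate and 103, 76.6 and 94.8 CPM just over it, and these windows held as few as 8 cells in a lot.

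**Figure D1:**
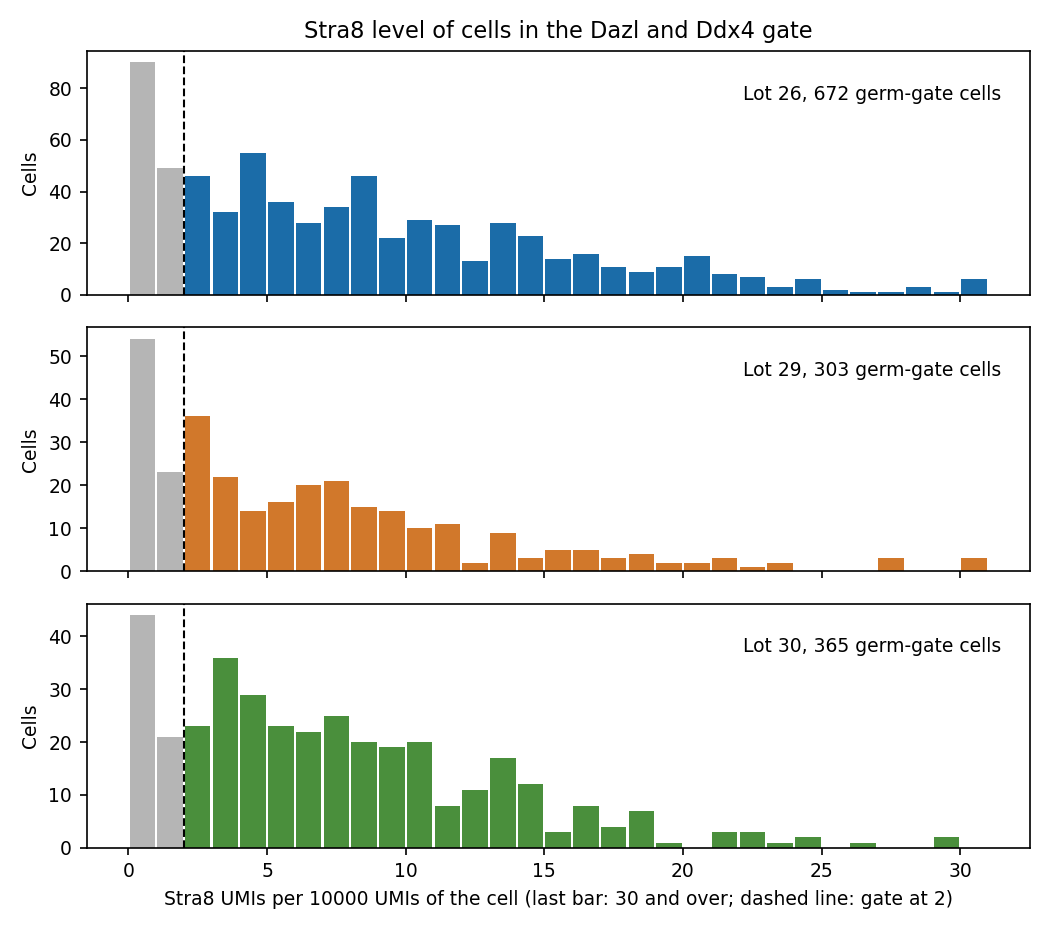
Number of germ cells (y axis) by Stra8 UMIs per 10000 UMIs of the cell (x axis), 1 panel per lot, with Stra8-low and Stra8-high cells on either side of the gate of 2. The Stra8-high cells (533, 226 and 300) reach 38.2, 34.0 and 29.8 per 10000, with no gap at the gate.

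Stra8-high cells made up most germ cells in every lot. They were 79.3% of the germ cells in lot 26 (533 of 672, exact 95% binomial interval 76.1 to 82.3%), 74.6% in lot 29 (226 of 303, 69.3 to 79.4%) and 82.2% in lot 30 (300 of 365, 77.9 to 86.0%), with a mean of 78.7% ± 3.84 (SD, n = 3 lots). Of all kept cells they were 5.49%, 2.64% and 2.80%, and the intervals cover counting error only. A gate of 1 per 10000 gave a mean share of 85.6% and a gate of 4 gave 63.1%, so the share goes with the gate.

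Stra8-high cells were the deeper cells of each lot beside the somatic cells, but not beside the Stra8-low cells. Their median was 22257, 17876.5 and 24262.5 UMIs, against 24766, 22632 and 25063 in Stra8-low and 10731, 8778 and 11406 in somatic cells. Mael, a germ cell gene of the piRNA pathway that the rule did not use, stood at 114, 97.5 and 97.4 CPM in Stra8-high cells and at 1.3, 0.335 and 0.571 CPM in somatic cells. Of the kept barcodes 69 occurred in 2 lots, and 6 Stra8-high cells carried one of these. Called doublets were 12.6, 6.64 and 15.3% of Stra8-high and 17.3, 16.9 and 20% of Stra8-low cells, and cells with at least 10 somatic marker UMIs per 10000 were 17.3, 4.42 and 16.3% and 23.7, 14.3 and 21.5%. UMIs of 4 Y-linked genes were found in 1.31, 1.33 and 0% of Stra8-high cells (0 of 300 in lot 30, where a floor of 3 counts allows a share of up to 1% and the exact 95% binomial interval ends at 1.22%) and in 5.76, 10.4 and 1.54% of Stra8-low cells. The part of these differences in the results was tested only by leaving such cells out.

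The first comparison asks what else differs between germ cells with high and low Stra8. Genes of meiotic chromosome structure were higher in Stra8-high cells, and genes of pluripotency and of the primordial germ cell were lower. UMI counts were summed per lot and tested with edgeR's quasi-likelihood test, Benjamini-Hochberg adjusted over 11479 genes, with the 3 genes of the rule left out. In Stra8-high cells 1048 genes (9.13%) were higher and 863 (7.52%) lower at an adjusted p under 0.05. Both sums of a lot come from 1 pool of cells, and with the lot as a replicate block 2205 genes (19.2%) were higher and 2114 (18.4%) lower. Without lot 26 the counts without the block were 152 and 106, and without lot 30 they were 334 and 223. Without the germ cells holding at least 10 somatic marker UMIs per 10000 they were 1330 and 1315.

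The axis of meiotic chromosomes was raised in every gene tested. Of 8 axis and cohesin genes, 8 were higher, beside 9.13% of all genes tested. Their median log2 fold change was 1.74, against -0.003 over all genes tested. Rec8 (chromosome 14, 55618037 to 55625395, plus strand), the meiotic kleisin of cohesin, stood at 208, 185 and 200.4 CPM in Stra8-high and 44.7, 50.9 and 45.8 CPM in Stra8-low cells (log2 fold change 2.05 ± 0.12 SE, adjusted p = 1.99e-06). Every Stra8-high lot was above every Stra8-low lot, as it was for 20.6% of all genes tested. Sycp3, which builds the lateral element of the axis, stood at 419, 443 and 339 CPM against 93.1, 113 and 72.4 CPM (2.08 ± 0.19, adjusted p = 7.13e-05), again without overlap. Smc1b, a meiotic cohesin subunit, stood at 736, 891 and 603 CPM against 229.9, 346 and 242 CPM (1.42 ± 0.21). Stag3, another cohesin subunit, had the smallest change of the list, with 183, 147 and 175 CPM against 113, 81.5 and 118 CPM (0.66 ± 0.12, adjusted p = 0.00384). Hormad1 and Hormad2, axis proteins that recruit the recombination machinery, rose by 1.14 ± 0.18 and 1.15 ± 0.14 on the log2 scale, and Sycp2, the partner of SYCP3, by 2.37 ± 0.20. Rad21l, another meiotic kleisin, had 103 UMIs in Stra8-high cells and 0 in Stra8-low cells. Against a floor of 3 UMIs over the Stra8-low group it was at least 10.1-fold higher.

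Most genes of the synaptonemal complex, the protein zipper that joins paired chromosomes, were higher too. Of 6 tested, 5 were higher and 0 lower (median log2 fold change 1.28), and with the block 6 were higher. Among all genes tested 9.13% were higher (19.2% with the block). Sycp1, the transverse filament, stood at 162, 146 and 137 CPM against 26.6, 38.3 and 20.8 CPM (2.36 ± 0.19, adjusted p = 4.18e-05). Tex12, a central element protein, stood at 112, 93.7 and 75.5 CPM against 18.6, 20.2 and 10.7 CPM (2.46 ± 0.22). The lots overlapped for neither gene. Syce1, Syce3 and 4930447C04Rik (Six6os1), further central element genes, rose by 1.24 ± 0.12, 1.31 ± 0.16 and 1.20 ± 0.15 on the log2 scale. Syce2 was already at 319.6, 374 and 303 CPM in Stra8-low cells and at 401, 445 and 403 CPM in Stra8-high cells, and it passed the test only with the block (adjusted p = 0.17 without it and 1.01e-05 with it).

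Genes that make and repair meiotic DNA breaks followed, mostly at lower levels. Of 21 tested, 17 were higher and 0 lower (median log2 fold change 1.36, and 18 with the block). Among all genes tested 9.13% were higher (19.2% with the block). Dmc1, the meiotic recombinase, stood at 31.4, 24.8 and 25.8 CPM in Stra8-high and 10.6, 11.5 and 9.59 CPM in Stra8-low cells (1.36 ± 0.18, adjusted p = 0.000545). Prdm9, the histone methyltransferase that places breaks, stood at 16.5, 11.7 and 9.31 CPM against 2.59, 1.09 and 3.73 CPM (2.32 ± 0.37). Neither gene overlapped between the groups. Spo11, which cuts the DNA, was low in both groups, at 7.18, 4.21 and 6.88 CPM against 3.88, 3.28 and 4.79 CPM, with overlapping lots (0.63 ± 0.31, adjusted p = 0.184). Mei1, needed for break formation, was at 8.61, 4.87 and 3.95 CPM against 0.259, 0 and 0 CPM, which is 1 UMI in all Stra8-low cells. Genes that tie telomeres to the nuclear envelope rose, Ccdc79 (Terb1) by 3.17 ± 0.29, 4933406J08Rik (Terb2) by 1.47 ± 0.25 and 1700123I01Rik (Majin) by 3.12 ± 0.45 on the log2 scale. Hsf2bp, Tex11, Meiob, Tex15, Msh4 and Ccdc36, which act in break formation or on recombination intermediates, rose by 1.12, 1.43, 1.52, 1.63, 1.75 and 2.47.

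The list of meiotic entry factors, which also holds other germ cell genes such as Tex101 and Lin28a, was raised with 2 exceptions. Of 10 tested, 8 were higher and 0 lower (median log2 fold change 1.42, and the same counts with the block). Among all genes tested 9.13% were higher (19.2% with the block). Gm4969, the Meiosin gene (chromosome 7, 19099046 to 19118368, minus strand), stood at 13.1, 8.86 and 9.69 CPM in Stra8-high cells against 0.517, 1.64 and 1.07 CPM, which is 7 UMIs in all Stra8-low cells (3.47 ± 0.41, adjusted p = 0.000344). Gm1564, the Meioc gene, whose product holds cells in meiotic prophase with YTHDC2, stood at 148, 151 and 156 CPM against 19.7, 21.3 and 19.2 CPM (2.90 ± 0.13, adjusted p = 1.64e-07). The lots of both genes stood apart. Ythdc2 itself rose by 0.54 ± 0.14. Figla, a transcription factor of oocytes, stood at 31.5, 33.7 and 26.1 CPM against 3.36, 5.47 and 1.6 CPM, and Tex101, a germ cell surface protein, at 265, 229 and 216 CPM against 47.6, 37.2 and 31.96 CPM. Zglp1, a regulator of the oogenic programme downstream of BMP, stood at 99.4, 122 and 111 CPM in Stra8-high and 103, 119.8 and 90.6 CPM in Stra8-low cells (0.06 ± 0.15, adjusted p = 0.849). Its lots overlapped, and its sign turned in 4 of the alternatives tried. Lin28a, an RNA-binding protein of primordial germ cells, was at 62.0, 46.5 and 65.3 CPM against 67.5, 70.0 and 66.6 CPM (-0.25 ± 0.13, adjusted p = 0.197).

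**Figure D2:**
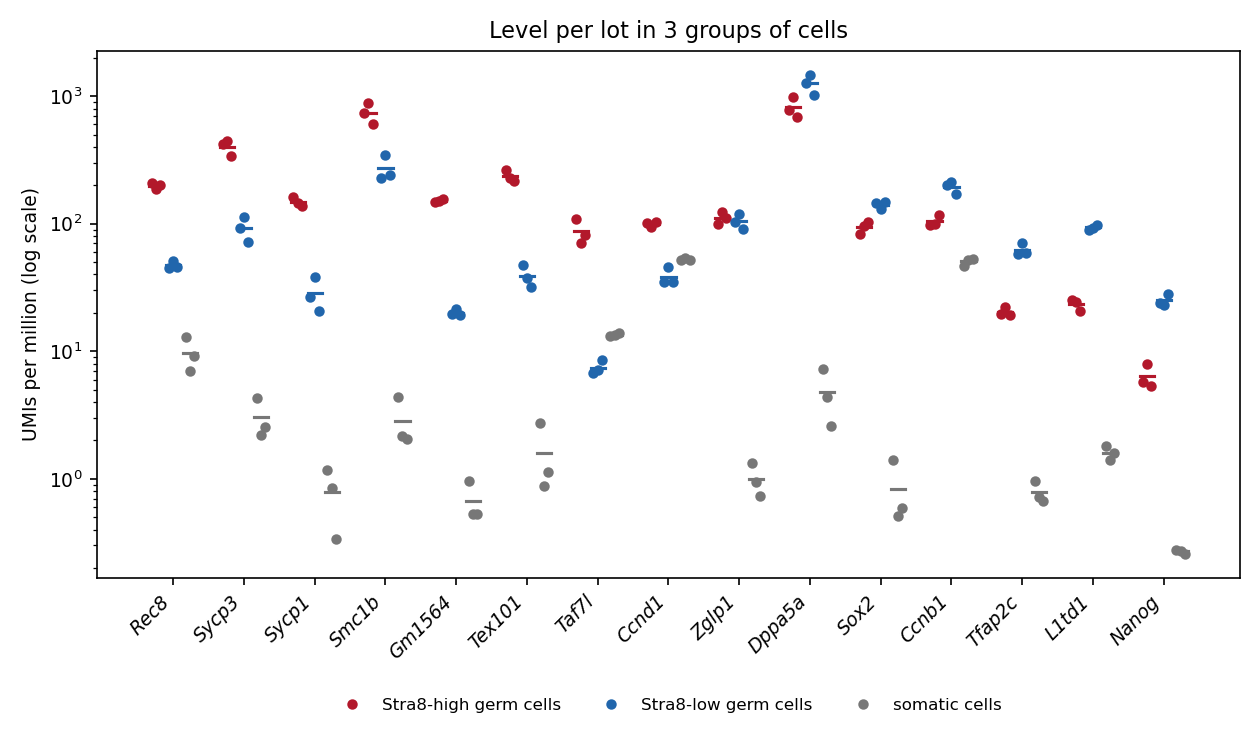
Level in CPM on a log scale (y axis) of selected genes (x axis) in Stra8-high germ cells, Stra8-low germ cells and somatic cells, with 1 point per lot and a bar at the mean of 3 lots. Rec8, Sycp3, Sycp1, Gm1564, Tex101 and Taf7l are higher in every Stra8-high lot than in any Stra8-low lot, Zglp1 overlaps, and Sox2, Tfap2c, L1td1 and Nanog are lower in every Stra8-high lot.

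Of 15 BMP response genes, 1 was higher and 0 lower, beside 9.13% and 7.52% of all genes tested (6 and 1 with the block, beside 19.2% and 18.4%). Msx1, a homeobox gene induced by BMP, stood at 79.3, 57.6 and 61.8 CPM against 30.0, 35.6 and 35.7 CPM (0.97 ± 0.15, adjusted p = 0.00154). Id3, another BMP target, was at 427, 479 and 530.4 CPM against 349, 402 and 517 CPM, with overlapping lots, and passed only with the block (adjusted p = 0.508 without it and 0.00706 with it). Crabp1 and Crabp2, which bind retinoic acid, had log2 fold changes of 0.20 and 0.39 with the block and passed the test only there.

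The pluripotency network was lower in Stra8-high cells. Of 16 genes tested, 0 were higher and 14 lower, with a median log2 fold change of -0.83, and with the block 16 were lower. Among all genes tested 7.52% were lower (18.4% with the block). Nanog, a core factor of the network, had the largest change of the list, with 5.76, 7.97 and 5.35 CPM in Stra8-high and 23.8, 23.0 and 28.2 CPM in Stra8-low cells (-2.04 ± 0.21, adjusted p = 0.000141). Sox2, another core factor, stood at 82.4, 95.5 and 103 CPM against 146, 129.6 and 148 CPM (-0.62 ± 0.12, adjusted p = 0.00387). Pou5f1 was low in both, at 15.04, 14.8 and 19.12 CPM against 25.1, 25.2 and 31.4 CPM (-0.75 ± 0.16, adjusted p = 0.00732), and lost its call when cells were thinned to 8000 UMIs or when lot 26 or lot 30 was left out. The lots of these 3 genes did not overlap, as was so for 13.7% of all genes tested in this direction. Esrrb, Zfp42 and Tcl1, which belong to the same network in embryonic stem cells, fell by 1.48, 1.20 and 1.36 on the log2 scale. Dppa5a, an RNA-binding protein of pluripotent cells, was abundant in both, at 782, 989 and 681 CPM against 1279, 1473 and 1029 CPM (-0.65 ± 0.19, adjusted p = 0.0377).

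Genes of the primordial germ cell were lower in part. Of 17 tested, 0 were higher and 9 lower (12 with the block), with a median log2 fold change of -0.65. Among all genes tested 7.52% were lower (18.4% with the block). Tfap2c, which with Prdm1 and Prdm14 specifies primordial germ cells, stood at 19.6, 22.1 and 19.2 CPM against 57.4, 70.6 and 58.6 CPM (-1.65 ± 0.15, adjusted p = 7.28e-05). Prdm1 and Prdm14 fell by 1.06 ± 0.18 and 1.28 ± 0.22 on the log2 scale, and Nanos3 and Dnd1, RNA-binding factors that keep germ cells alive, by 1.33 ± 0.16 and 0.93 ± 0.16. Kit, the receptor for the growth factor of migrating germ cells, was at 83.4, 79.3 and 74.1 CPM against 112, 101 and 121 CPM (-0.52 ± 0.11). Dppa3, a maternal factor, was at 575, 831 and 662 CPM against 890.3, 1145 and 808 CPM, with overlapping lots, and passed only with the block (adjusted p = 0.104 without it and 8.48e-10 with it). Pecam1 encodes CD31, the target of 1 of the depletion antibodies. It stood at 33.7, 44.5 and 34.8 CPM in Stra8-high and 93.1, 79.9 and 105 CPM in Stra8-low cells (-1.34 ± 0.15, adjusted p = 0.000237), and an effect of the sorting on which germ cells were left was not tested. Fut4, a fucosyltransferase gene of the list, was at 7.63, 4.87 and 6.12 CPM in Stra8-high and 5.43, 6.02 and 5.86 CPM in Stra8-low cells, without a call. Fut9, another of the list, was not among the genes tested. The level of the SSEA1 epitope, the other target of the depletion, was not measured and cannot be read from Fut4.

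Of 53 genes of G2 and M phase, 1 was higher and 15 were lower (2 and 32 with the block). All genes tested gave 9.13% and 7.52% (19.2% and 18.4% with the block). The median log2 fold change of the list was -0.31. Ccnb1, the mitotic cyclin, stood at 98.3, 98.8 and 116 CPM against 199, 211 and 172 CPM (-0.93 ± 0.13, adjusted p = 0.000693), without overlap. Ube2c, Aurka and Mki67, genes of dividing cells, fell by 0.69 ± 0.16, 0.67 ± 0.17 and 0.45 ± 0.13, the last with overlapping lots, and Bub1, a spindle checkpoint kinase, was the 1 that rose (0.47 ± 0.14). Of 43 S phase genes 3 were higher and 5 lower, beside 9.13% and 7.52% of all genes tested (13 and 11 with the block, beside 19.2% and 18.4%), and nothing is read from these counts. Ccne2, a cyclin of S phase entry, stood at 29.7, 24.8 and 29.1 CPM against 10.1, 9.85 and 10.7 CPM (1.44 ± 0.16, adjusted p = 0.000196), while Ung and Tyms, enzymes of uracil repair and thymidine supply, fell by 0.81 ± 0.12 and 0.53 ± 0.13. Of 16 cyclins and CDK inhibitors 5 were higher and 3 lower, beside 9.13% and 7.52% of all genes tested. Ccnd1, a cyclin of G1, stood at 101, 95.02 and 104 CPM against 34.6, 45.4 and 34.6 CPM (1.37 ± 0.14, adjusted p = 0.000128). The inhibitors Cdkn2a and Cdkn2d rose by 0.93 ± 0.14 and 1.16 ± 0.15, and Ccnb3, a cyclin of meiosis, by 3.18 ± 0.61. The phase of a cell was not assigned.

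Of 16 piRNA and germline RNA genes, 7 were higher and 0 lower (10 and 2 with the block). All genes tested gave 9.13% and 7.52% (19.2% and 18.4% with the block). Mael rose by 0.93 ± 0.12, Mov10l1, an RNA helicase of piRNA making, by 0.78 ± 0.12, Gtsf1, a PIWI partner, by 1.68 ± 0.32 and Tdrd1, a scaffold, by 1.33 ± 0.23 on the log2 scale. Of 9 DNA methylation genes, 1 was higher and 1 lower (3 and 2 with the block), which is near the 9.13% and 7.52% of all genes tested and no result about the list. Uhrf1, which brings DNA methylation to new strands, stood at 48.1, 39.0 and 46.1 CPM against 24.3, 19.14 and 22.4 CPM (0.98 ± 0.13). Tet1, which oxidises methylcytosine, stood at 49.4, 55.6 and 51.0 CPM against 98.5, 103 and 111 CPM (-1.03 ± 0.12, adjusted p = 0.000285). Hells, a chromatin remodeller, had a mean of 1409 ± 128 CPM (SD, n = 3 lots) against 1019 ± 116 CPM, and passed only with the block (adjusted p = 0.0642 without it and 2.42e-10 with it). Of 19 genes of the PRC1.6 complex and other repressors of germline genes, 2 were higher and 3 lower (4 and 4 with the block). All genes tested gave 9.13% and 7.52% (19.2% and 18.4% with the block), and nothing is read from these counts. The higher ones were Setdb1 and Yaf2 (0.47 and 0.38), the lower ones Trim28, Suz12 and Max (-0.44, -0.47 and -0.48).

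The Rhox homeobox genes of the X chromosome split. Of 9 tested, 5 were higher and 2 lower (5 and 4 with the block). All genes tested gave 9.13% and 7.52% (19.2% and 18.4% with the block). Rhox13 stood at 55.1, 54.5 and 42.3 CPM against 10.6, 9.3 and 7.99 CPM (2.38 ± 0.19), while the more abundant Rhox9 stood at 571, 594 and 489 CPM against 888, 905 and 967 CPM (-0.76 ± 0.13) and Rhox6 fell by 0.87 ± 0.15. Members of the cluster are alike in sequence, and the authors kept only uniquely mapped reads, so that reads shared among members were not counted.

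**Figure D3:**
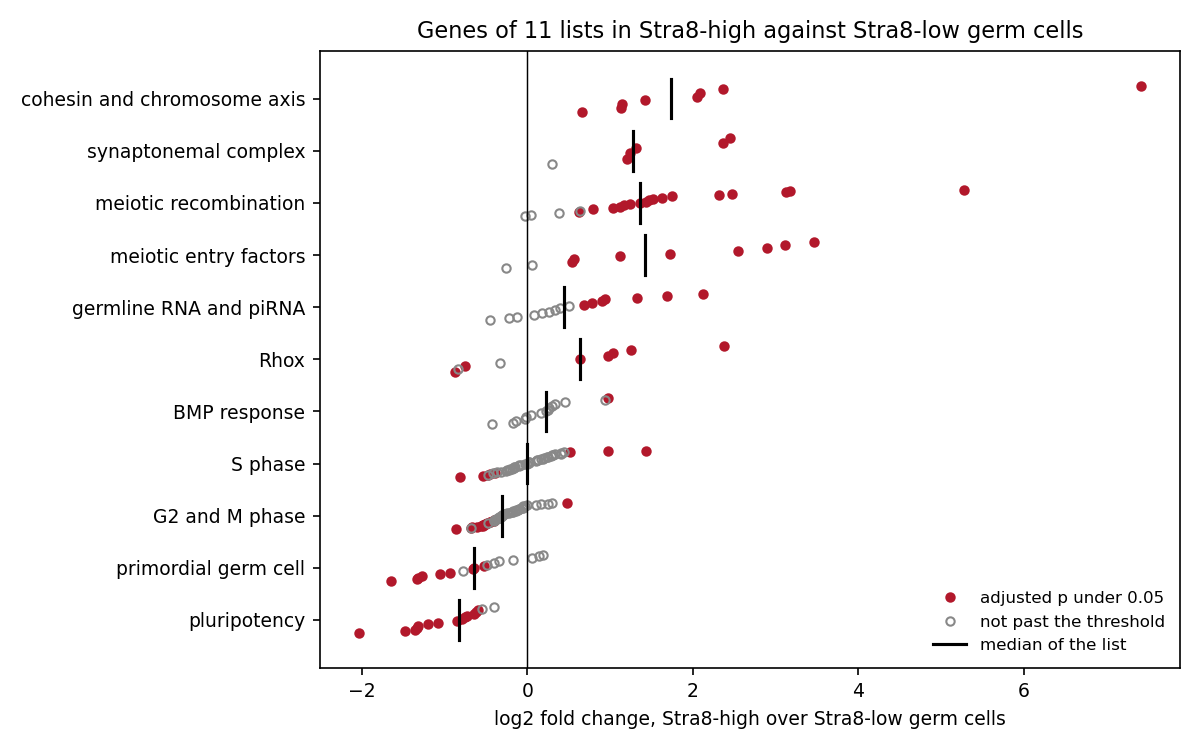
Log2 fold change of Stra8-high over Stra8-low germ cells (x axis) for the tested genes of each list (y axis), filled where the edgeR adjusted p was under 0.05, with a bar at the median of a list. Axis, synapsis, recombination and entry genes lie to the right with medians of 1.28 to 1.74, pluripotency and primordial germ cell genes to the left with medians of -0.83 and -0.65, and the fitted value of Rad21l rests on 0 UMIs in Stra8-low cells.

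By size, Taf7l led the genes that were higher among those at 20 CPM or more. This X-linked paralog of a general transcription factor subunit stood at 109.8, 70.9 and 82.0 CPM against 6.72, 7.11 and 8.52 CPM (3.57 ± 0.21, adjusted p = 1.99e-06). Outside the lists it was followed by Spdya, an activator of CDK2 at meiotic telomeres (2.74), BC049730 (2.63), Xlr4b (2.41), H2-D1, a class I histocompatibility gene (2.33), Gm6880 (2.32) and Inca1 (2.24), all on the log2 scale. H2-D1, Xlr4b and Gm6880 have near copies, and their counts are uncertain to that extent. Among those that were lower, L1td1, an RNA-binding protein of pluripotent cells, stood at 25.2, 24.4 and 20.8 CPM against 90.0, 93.0 and 97.5 CPM (-2.02 ± 0.13, adjusted p = 4.2e-06). Etv4 and Etv5, factors that respond to FGF, fell by 1.49 and 1.49, and 1700019D03Rik, Plcd1, Rgcc, Tbx4, Gna14 and Cep89 by 2.14, 1.59, 1.57, 1.44, 1.43 and 1.42.

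Red cell genes were lower in Stra8-high cells, a difference that rested on few cells. Of 5 globins tested 5 were lower, with a summed level of the red cell list of 86.9, 166 and 89.5 CPM in Stra8-high and 3180, 6577 and 96.9 CPM in Stra8-low cells. Of the 281 Stra8-low cells 4 held 2087, 2667 and 7201 globin UMIs in lot 26 and 11718 in lot 29, while no other Stra8-low cell held more than 12 and no Stra8-high cell more than 11. Without those 4 cells 0 of the 5 globins passed the test.

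Across bins of the Stra8 level the same genes sloped. There were 6 bins per lot, from 0 Stra8 UMIs to 8 and over per 10000, with at least 20 cells in each. Rec8 rose over 5 of 5 steps in each of 3 lots, from 35.4, 24.8 and 10.5 CPM at 0 to 281, 274 and 289 CPM at 8 and over, and so did Gm1564, Sycp1, Tex101 and Taf7l. Within Stra8-high cells alone, Taf7l went from 30.2, 13.2 and 25.8 CPM (2 to under 4) to 170.5, 151 and 133 CPM. Gm4969 was at 2.22, 0.776 and 1.23 CPM in the lowest bin inside the gate and at 20.3, 18.4 and 16.5 CPM in the highest. Both genes were highest in the cells with the most Stra8. Nanog ran from 22.1, 40.3 and 34.4 CPM at 0 to 2.29, 4.02 and 2.6 CPM, and Ccnb1 from 166, 248 and 229 CPM to 58.7, 49.9 and 87.4 CPM. Sox2 differed among lots in the highest bin, at 70.7, 91.2 and 114 CPM, and Zglp1 was at 90.3, 104 and 79.2 CPM in the lowest and 95.9, 113 and 111 CPM in the highest bin. The bins were set by the measure of the rule, so these values are a description without a test.

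**Figure D4:**
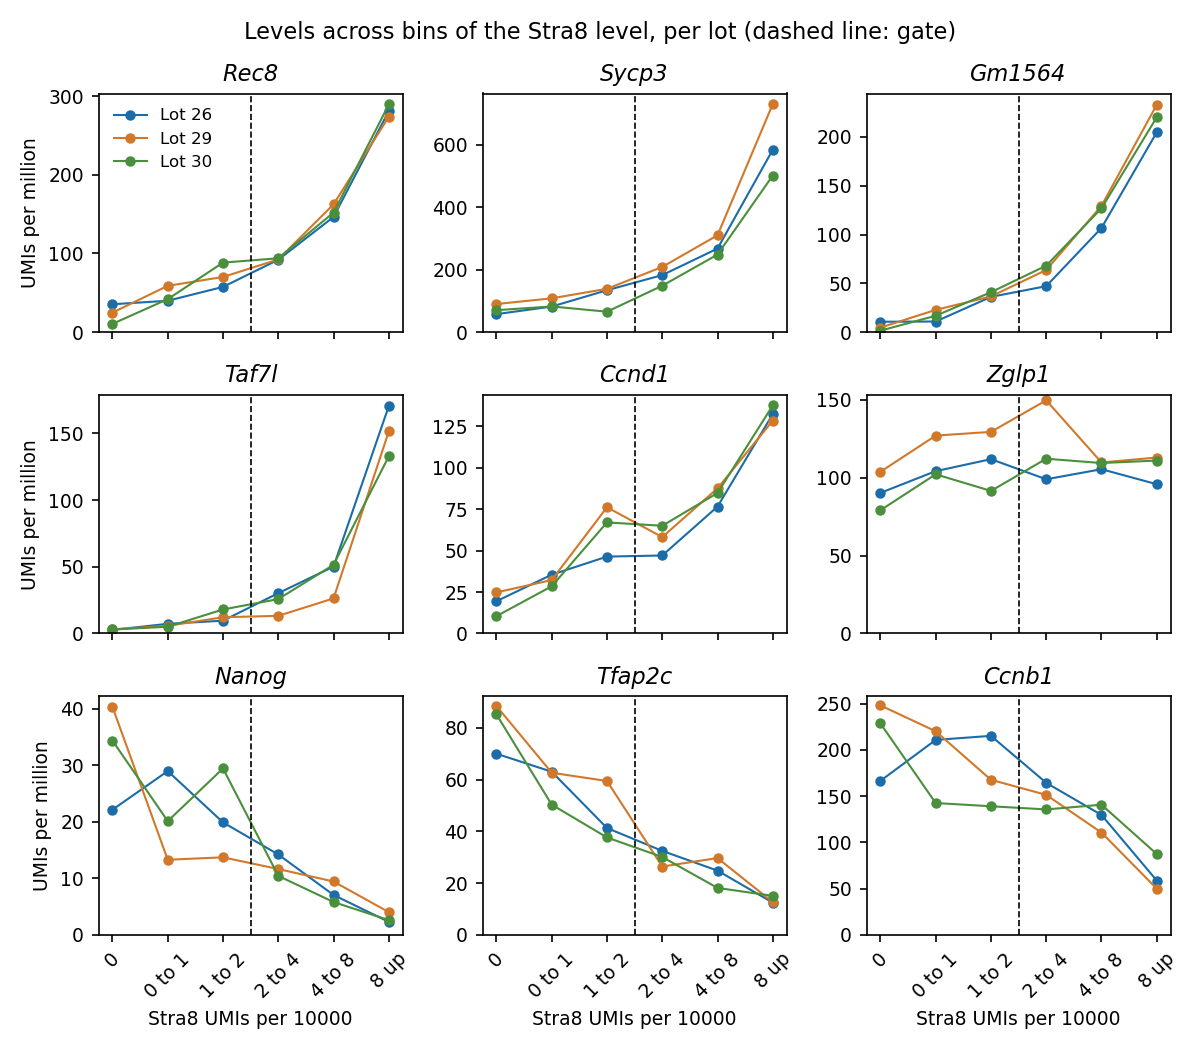
Level in CPM (y axis) of selected genes in germ cells summed by bin of Stra8 UMIs per 10000 (x axis), 1 line per lot, with the gate between the bins marked. Rec8 climbs from 35.4, 24.8 and 10.5 CPM to 281, 274 and 289 CPM in lots 26, 29 and 30, and Nanog ends at 2.29, 4.02 and 2.60 CPM.

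Within the members, cells with more Stra8 held more of the axis genes Sycp3, Rec8 and Smc1b, the 3 of the axis list for which this was computed. Across Stra8-high cells the rank correlation of a gene with Stra8, both per 10000 UMIs, was 0.556, 0.561 and 0.567 for Sycp3 in lots 26, 29 and 30 (533, 226 and 300 cells), 0.517, 0.547 and 0.586 for Rec8, 0.536, 0.533 and 0.384 for Smc1b and, outside that list, 0.58, 0.53 and 0.507 for Tex101. It was -0.449, -0.487 and -0.384 for Ccnb1, -0.466, -0.447 and -0.174 for Dppa3 and -0.0536, -0.211 and -0.021 for Zglp1. The cells of a lot share a library and the measures share the total of UMIs, with which Stra8 per 10000 itself had correlations of -0.235, -0.262 and -0.178, so these are descriptions.

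A summed level cannot tell more expressing cells from more RNA in each, so shares of cells with a UMI were taken after thinning to 8000 UMIs per cell (14 Stra8-high, 3 Stra8-low and 7575 somatic cells were shallower and left out). Rec8 was found in 74.8% ± 1.95 (SD, n = 3 lots) of Stra8-high cells, 28.7% ± 4.26 of Stra8-low cells and 6.2% ± 2.05 of somatic cells, and before thinning in 93.0%, 59.5% and 8.25%. Sycp3 was found in 84.0% ± 2.33, 46.3% ± 2.64 and 2.15% ± 0.918 (97.5%, 81.8% and 2.96% before thinning). The level in Stra8-high over somatic cells was 20.9-fold for Rec8 and 136-fold for Sycp3, so the somatic shares of these genes are not read as 1 common background. Gm4969 was found in 8.24% ± 2.47, 1.2% ± 0.431 and 0.351% ± 0.117 (19.3%, 2.8% and 0.4% before thinning), so most Stra8-high cells had no Meiosin UMI at this depth. Nanog was found in 4.62% ± 0.512, 13.8% ± 1.15 and 0.217% ± 0.0417 (12.7%, 39.3% and 0.307% before thinning). Meiotic and pluripotency messages also met in 1 cell. A Sycp3 UMI and a Sox2 UMI were found together in 36.3%, 43.2% and 46.5% of thinned Stra8-high cells of lots 26, 29 and 30, and in 28.99%, 30.3% and 39.1% of Stra8-low cells. Doublets were not removed here. With or without Sycp3, Sox2 was found in a mean of 50.4% of thinned Stra8-high and 66.4% of Stra8-low cells. The joint shares go with the single shares of both genes, and meeting beyond those was not tested.

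Promoters of the genes that were higher and lower differed in short stretches. RefSeq promoters, here from 250 bases before to 50 after the start, were matched for 871 of 1048 genes that were higher and 668 of 863 that were lower, and both strands were searched. CNCCTCAG was held by 17.3% of the higher and 5.84% of the lower genes, against 11.2% of the 9260 tested genes with a promoter and 7.94% of all 32851 promoters. GCGGGAA, a form of the E2F site, was held by 15.4% and 8.68% (10.6% of tested genes, 4.60% of all promoters). AGGTCA was held by 13.7% and 16.3% (14.0% and 16.3%), and CACGTG, the E-box, by 10.2% and 14.97% (12.1% and 7.15%). Median GC content was 62% and 60.4%, promoters per gene were 1.30 and 1.28, and no test was run. Of the 8 genes of the entry list matched, 3 held CNCCTCAG (Gm4969, Figla and Ugt8a). So did 4 of 6 synaptonemal complex genes, 2 of 15 recombination genes (Prdm9 and Msh5) and 1 of 8 axis genes (Hormad2). Of 10 pluripotency genes 1 held it (Pou5f1), and of 10 primordial germ cell genes 1 (Cxcr4).

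The second comparison sets Stra8-high cells against the somatic cells of the same lots. Of 15285 genes tested, 5465 (35.8%) were higher and 5933 (38.8%) lower in Stra8-high cells, 74.6% in either direction (38.5%, 41.9% and 80.4% with the block). The largest folds among genes at 100 CPM or more were those of Hormad1, at 165, 183 and 151 CPM against 0.833, 0.558 and 0.335 CPM (log2 fold change 8.23 ± 0.28, adjusted p = 4.67e-08), and Smc1b (8.07 ± 0.36). Gm1564, Stk31, Sycp1, Tuba3a, Trap1a, Dppa5a, 1700013H16Rik and Rbmxl2 followed, at 7.85, 7.79, 7.64, 7.64, 7.52, 7.48, 7.48 and 7.44. Stra8-low cells held some of these at like levels, Rbmxl2 at 182, 265 and 213 CPM against 213, 266 and 236 CPM in Stra8-high cells (0.09 ± 0.17, adjusted p = 0.764). Taf7l had 13.1, 13.5 and 13.9 CPM in somatic cells, more than in Stra8-low cells. Uhrf1 had 41.3, 39.5 and 41.2 CPM in somatic cells, and its difference from Stra8-high cells did not pass the test (log2 fold change 0.16 ± 0.08, adjusted p = 0.1).

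Markers of other cells were also counted in the members. Whether their UMIs there came from background RNA, doublets or the germ cells themselves was not tested. Of 11 pre-granulosa markers 11 were lower than in somatic cells, beside 38.8% of all genes tested. Their summed level was 355, 169 and 391 CPM in Stra8-high and 494, 255 and 569 CPM in Stra8-low cells. In somatic cells it was 2567, 2419 and 2750 CPM. Foxl2, a marker of this list, was at 0.374, 0 and 0.382 CPM in Stra8-high cells. A Foxl2 UMI was found in only 3.70, 1.75 and 2.46% of somatic cells before thinning. Its low level in Stra8-high cells therefore tells little about somatic RNA. In the first comparison 0 of 10 pre-granulosa markers passed the test and 8 were lower with the block. So were 7 of 8 stromal and 4 of 6 epithelial markers, beside 18.4% of all genes tested with the block. Of 3 endothelial, 7 myeloid and 4 Sertoli cell markers tested, 1, 1 and 0 were lower with the block. Of 18 immediate early and heat shock genes, which are not markers of a cell type, 13 were lower with the block. Among genes at 100 CPM or more, Fst, Ifngr2, Ptn, Gpx8 and Cpne8 had the largest drops from somatic to Stra8-high cells outside the globins (log2 fold changes of -3.44, -3.43, -3.36, -3.33 and -3.32). Without the germ cells of at least 10 somatic marker UMIs per 10000, 8 of 8 axis genes were still higher and 14 of 16 pluripotency genes lower.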

How the data were processed

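Messenger RNA of single cells was measured in 3 lots. The deposited values are UMI counts per gene and cell, which the authors made with UMI-tools, STAR 2.7 and featureCounts 2.0.1 on GRCm38. The annotation release and the strand setting are not given in the sources used here. The total was 126680758, 87494974 and 141920060 UMIs in lots 26, 29 and 30. Members and gene lists were chosen with earlier results of these data known. Kept cells had 200 to 9000 genes and at most 10% mitochondrial UMIs, doublets were called with Scrublet in scanpy 1.11.5 (8% expected) and left in. Counts were summed per group and lot and tested with edgeR 4.0.16 in R 4.3.3 (quasi-likelihood, TMM, low counts filtered, Benjamini-Hochberg over all genes tested), 3 sums against 3. With only 3 lots, p-values measure the spread between these pools. DESeq2 1.42.0, other gates, other filters, thinning to 8000 UMIs and leaving out each lot were alternatives. On simulated data, 33.9%, 70.6% and 94.8% of genes changed 1.5-, 2- and 4-fold between Stra8-high and Stra8-low cells were recovered over 11482 genes, and 6.82% of the calls were false. The simulated sums were not paired by lot and only 200 genes were changed per draw. These rates therefore need not hold for the real comparison. Both groups of a lot come from the same pool, so the lot pairs them, and the deviations of the paired sums from their group means had correlations of 0.336, 0.487 and 0.314. Named genes were those of the lists, the 15 with the largest change each way from Stra8-low cells at 20 CPM or more and the 10 each way from somatic cells at 100 CPM or more, with 1 direction in 3 of 3 lots. Promoters came from RefSeq (GRCm38.p6) and positions from GENCODE. 1 gene, and the counts of the list that holds it, are not reported here.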

Additional observations from a re-analysis of the deposited data

Results flagged for a closer look

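Stra8 also appeared in cells outside both germ groups. Kept cells with at least 5 Dazl UMIs but no Ddx4 UMI (37, 25 and 16 cells in lots 26, 29 and 30), which entered no comparison, held 436, 206 and 478 Stra8 CPM, above the 5.57, 1.75 and 2.56 CPM of somatic cells. They also held 101, 75.5 and 109 CPM of Rec8, 1267, 1708 and 807 CPM of Dppa5a and 72.5, 45.8 and 61.5 CPM of Mael. Somatic cells held 7.26, 4.39 and 2.60 CPM of Dppa5a and 1.30, 0.335 and 0.571 CPM of Mael. Wnt4, a pre-granulosa marker, was at 118, 64.1 and 224 CPM. It was at 58.0, 27.0 and 67.2 CPM in Stra8-high and 367, 342 and 409 CPM in somatic cells. Called doublets made up 27.0%, 12% and 18.8% of the cells without Ddx4. Whether these are germ cells short of a Ddx4 UMI was not tested. Of the somatic cells, 30, 15 and 10 reached the Stra8 gate, and the highest held 25, 6 and 12 Stra8 UMIs.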

How the results depend on the processing

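With the lot as a replicate block, 2205 genes were higher and 2114 lower in Stra8-high than in Stra8-low cells, and 9 genes named in the text gained a call and 0 lost one. DESeq2's Wald test gave 692 higher genes, and thinning to 8000 UMIs gave 550 higher and 505 lower. Leaving out 1 lot gave 152 to 1302 higher and 106 to 1165 lower genes, the lowest without lot 26 (334 and 223 without lot 30). Removing germ cells with at least 10 somatic marker UMIs per 10000, chosen after seeing the data, gave 1315 lower genes, and with the block 1973 higher and 2056 lower. The mean share of Stra8-high among germ cells was 85.6% at a gate of 1 per 10000 and 63.1% at a gate of 4, and 77.0 to 80.8% without 1 lot. For Zglp1 the log2 fold change was -0.0895 at a gate of 4, -0.0640 without the cells of somatic markers (-0.0796 with the block), and between -0.0288 (without lot 30) and 0.114 (without lot 26) with 1 lot left out. At a gate of 1 the globins Hba-a1, Hbb-bt, Hbb-y and Hba-x were at 0.33, 0.50, 0.45 and 1.25, and Hba-a1 was at 0.00851 without the 4 cells rich in globin, also an alternative chosen after seeing the data. Of those 4 cells, the 1 with 7201 globin UMIs held 14 Stra8 UMIs of 76331. The 1 with 11718 globin UMIs held 3 of 23569. Both are over a gate of 1 per 10000 and count as Stra8-high there. The cause of these shifts was not tested. Over 118 named genes and all alternatives, 1956 values kept their direction and call, 113 lost the call, 34 gained it and 9 changed sign. Many losses came from leaving out a lot. Over both comparisons, 43 values of named genes lost the call without lot 26, and 93 kept direction and call. Without lot 30 it was lost by 21 and without lot 29 by 1. The counts against somatic cells stayed within 1.5 times of the main ones under the alternatives run. Stra8-low cells, with 1828249 to 3867341 UMIs per lot, limit what can be seen in genes of few UMIs.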

Other observations

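Of 9 genes of the fetal male germ cell only 2 passed the filter on low counts, and 1 of them was higher in Stra8-high cells (2 with the block). Piwil4, a piRNA-binding protein that is also in the piRNA list, stood at 2.99, 5.54 and 2.93 CPM in Stra8-high and 0.776, 0.547 and 1.07 CPM in Stra8-low cells (log2 fold change 2.13 ± 0.56, edgeR adjusted p = 0.0235), and rests on 6 UMIs in Stra8-low cells. It did not pass without lot 30 or with a Stra8 gate of 4 per 10000, and the fit without lot 26 gave it no value. Fgf8, a growth factor, stood at 6.96, 7.53 and 5.48 CPM and 2.59, 4.92 and 1.6 CPM (1.14 ± 0.38, adjusted p = 0.0589 without the block and 0.00423 with it). Below the filter, Lefty1, an inhibitor of Nodal signalling, was at 0.823, 1.33 and 0.892 CPM in Stra8-high and 6.21, 3.83 and 2.13 CPM in Stra8-low cells, and Nodal, its ligand, at 0.299, 0.886 and 1.02 CPM and 2.33, 2.73 and 2.13 CPM. Both rest on few UMIs (24 and 35 for Lefty1, 16 and 18 for Nodal) and were not tested. Y-linked UMIs, summed over 4 genes, were 1.2, 0.664 and 0 CPM in Stra8-high and 6.21, 13.1 and 0.533 CPM in Stra8-low cells, and Sertoli cell markers were 42.1, 50.7 and 32.5 CPM and 31.3, 47.6 and 29.8 CPM. Their part in the differences was not tested beyond leaving out cells with a Y-linked UMI. After that 135 of 138 values of named genes kept direction and call and 3 lost the call. That step cannot remove a male cell without such a UMI.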
